A study of Homo sapiens with 6 samples.

Results

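The class I antigen presentation machinery was followed as 9 genes: the heavy chains HLA-B and HLA-C, the light chain B2M, the peptide transporter TAP1 and TAP2, the loading protein TAPBP, the trimming enzymes ERAP1 and ERAP2, and the transactivator NLRC5. They were read by symbol from a table of 29744 gene symbols, and all 9 were among the 14958 symbols that passed the filter on low counts. RNA came from 3 cultured lines of gastric tumour cells, with 2 libraries each and 6 in all. HER2R, whose source is labelled MKN45-HER2, is resistant to a T cell bispecific antibody (TCB) against HER2. CEAR, whose source is labelled MKN45-CEAR, is resistant to a TCB against CEACAM5. MKN45, an established gastric cancer line, is the sensitive line from which both are said to derive. All 3 grew in the same serum-containing DMEM/F-12 medium, and the labels list no treatment, so no interferon was added in any group as far as they say. They do not say whether a resistant line is 1 clone, whether it was kept under antibody, or whether MKN45-HER2 had been modified before selection, so resistance cannot be told apart from these.

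Class I molecules carry peptides from proteins made inside the cell to the surface, where CD8 T cells read them. Peptides cut by the proteasome are pumped into the endoplasmic reticulum by the TAP1-TAP2 transporter, trimmed by ERAP1 and ERAP2, and loaded with the help of tapasin, the product of TAPBP, onto a heavy chain paired with beta-2-microglobulin. NLRC5 switches on heavy chain, B2M and TAP1 genes from their promoters, and interferon-gamma raises most members of the pathway. A T cell bispecific antibody bridges a tumour antigen and the T cell receptor complex, so it does not need class I to bring T cells to the tumour cell.

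The libraries held 39657353 to 57964246 counts, and 1 count was 0.0177 to 0.0255 CPM, the unit that scales counts to library depth. Levels are in CPM, and a mean ± SD is over both libraries of 1 line (n = 2). The labels name no separate cultures, so every p-value reflects the spread between these libraries alone, and that spread may be technical. Genes were called where the p from edgeR, adjusted by the Benjamini-Hochberg method (BH) over all tested genes, was under 0.05. A bulk library cannot tell fewer cells that express a gene from less RNA per cell. The epithelial markers on a list of 12 were led by the keratins KRT8 and KRT18. They summed to 12015 to 15858 CPM in HER2R, 8133 to 10239 CPM in CEAR and 10749 to 13498 CPM in MKN45. The sum hides markers that were low or differed between lines. CDH17 had 2.47 and 8.11 CPM in HER2R, 0.385 and 2.72 CPM in CEAR, and 33.5 and 149 CPM in MKN45. KRT20 and TFF3 stayed at or below 0.932 CPM. Of 10 T cell markers matched, CD3D, CD2 and CD8B had no count in any library and LCK alone passed the filter, at 86.6 and 76.1 CPM in HER2R, 22.5 and 14.5 CPM in CEAR, and 24.6 and 12.0 CPM in MKN45. The other T cell markers stayed at or below 0.281 CPM, and of 5 NK markers 4 had no count in any library. Myeloid markers summed to 365 to 404 CPM in HER2R, 830 to 1198 CPM in CEAR and 911 to 1144 CPM in MKN45. Nearly all of this was LYZ, while CSF1R and TYROBP had no count. Fibroblast markers summed to at most 7.67 CPM, B cell markers to 0.318 CPM and endothelial markers to 0.255 CPM.

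The promoter windows of 7 members are shown because the elements known from class I genes can be read in them. RefSeq (GRCh38.p14) gave windows of 300 bases, 250 before and 50 after a transcript start, for 8 of the 9 members, 11 windows in all because TAP1, ERAP1 and ERAP2 have 2 starts each. For TAP1 and ERAP2 the window with marked letters is shown, and their other window holds none of the motifs. Capitals mark the core of an interferon-stimulated response element (GAAA or GAA, then any 2 bases, then GAAA), the kappaB site of class I genes (GGGG, ATTC, any base, CC), TGACG of the X2 box, and ATTGG, the reversed CCAAT box called Y. Each was searched on either strand, overlaps included.
HLA-B, chr6:31357130-31357429, minus strand: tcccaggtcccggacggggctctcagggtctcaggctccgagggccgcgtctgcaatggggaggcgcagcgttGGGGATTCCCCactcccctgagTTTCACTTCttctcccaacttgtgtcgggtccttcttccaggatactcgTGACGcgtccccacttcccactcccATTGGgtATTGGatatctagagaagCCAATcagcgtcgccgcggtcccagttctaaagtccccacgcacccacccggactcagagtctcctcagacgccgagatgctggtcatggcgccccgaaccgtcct
HLA-C, chr6:31272043-31272342, minus strand: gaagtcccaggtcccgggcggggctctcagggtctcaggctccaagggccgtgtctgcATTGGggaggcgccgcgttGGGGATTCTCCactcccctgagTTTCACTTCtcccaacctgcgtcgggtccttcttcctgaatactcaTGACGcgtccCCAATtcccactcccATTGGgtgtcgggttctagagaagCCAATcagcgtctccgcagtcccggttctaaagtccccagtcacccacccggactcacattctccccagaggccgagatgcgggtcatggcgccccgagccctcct
B2M, chr15:44711267-44711566, plus strand: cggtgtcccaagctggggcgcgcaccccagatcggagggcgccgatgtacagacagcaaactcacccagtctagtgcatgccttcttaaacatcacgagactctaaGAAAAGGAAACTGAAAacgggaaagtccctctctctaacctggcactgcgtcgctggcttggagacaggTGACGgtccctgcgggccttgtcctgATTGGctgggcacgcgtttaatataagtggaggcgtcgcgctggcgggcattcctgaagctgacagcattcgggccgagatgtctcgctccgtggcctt
TAP1, chr6:32853655-32853954, minus strand: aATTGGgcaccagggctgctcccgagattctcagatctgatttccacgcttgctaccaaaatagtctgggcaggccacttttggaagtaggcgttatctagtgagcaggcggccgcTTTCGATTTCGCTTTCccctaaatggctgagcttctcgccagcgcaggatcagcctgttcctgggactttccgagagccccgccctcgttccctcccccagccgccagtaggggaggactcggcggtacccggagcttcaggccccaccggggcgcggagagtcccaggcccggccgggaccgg
TAP2, chr6:32838690-32838989, minus strand: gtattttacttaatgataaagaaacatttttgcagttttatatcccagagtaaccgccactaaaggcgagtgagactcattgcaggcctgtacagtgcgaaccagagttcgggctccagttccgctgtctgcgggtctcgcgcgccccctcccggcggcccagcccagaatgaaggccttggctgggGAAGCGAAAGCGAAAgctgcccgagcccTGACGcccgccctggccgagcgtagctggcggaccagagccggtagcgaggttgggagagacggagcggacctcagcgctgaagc
TAPBP, chr6:33314029-33314328, minus strand: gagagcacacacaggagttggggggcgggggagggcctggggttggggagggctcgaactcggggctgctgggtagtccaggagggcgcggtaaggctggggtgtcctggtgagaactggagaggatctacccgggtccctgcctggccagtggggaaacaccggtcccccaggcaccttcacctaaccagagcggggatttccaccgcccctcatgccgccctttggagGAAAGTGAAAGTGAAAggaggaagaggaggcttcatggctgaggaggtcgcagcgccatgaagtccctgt
ERAP2, chr5:96876250-96876549, plus strand: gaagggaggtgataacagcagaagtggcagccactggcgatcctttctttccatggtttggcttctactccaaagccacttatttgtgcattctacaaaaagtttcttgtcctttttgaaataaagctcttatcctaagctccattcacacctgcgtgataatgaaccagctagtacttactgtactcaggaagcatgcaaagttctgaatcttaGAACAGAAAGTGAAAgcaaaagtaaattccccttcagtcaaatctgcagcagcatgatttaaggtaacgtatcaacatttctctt
The letters were chosen from known class I promoters. Their presence in HLA-B, HLA-C and the other members, also beside the shares of all windows, is therefore a description and not a test. Either form of the response element core stood in 9 of the 11 member windows, against 10.6% of the 35116 windows in the table. TGACG with ATTGG at most 25 bases after it on the same strand stood in 3 of the 11, those of HLA-B, HLA-C and B2M, against 0.817% of windows. The kappaB letters in the form given above stood in 2 of the 11, those of HLA-B and HLA-C, against 0.0769% of windows. Other forms of a kappaB site were not searched, so lower case does not mean that a window lacks one. The TAP1 window runs into that of PSMB9, an inducible proteasome subunit read the other way from the same stretch. Singly, TGACG stood in 24.6% and ATTGG in 34.6% of windows. These are reference sequences, and the HLA alleles of MKN45 may differ from them.

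NLRC5, the transactivator, was lower in both resistant lines than in the sensitive line. It stood at 10.8 and 9.39 CPM in HER2R, 11.5 and 17.2 CPM in CEAR, and 35.8 and 33.9 CPM in MKN45. Every resistant library lay below both MKN45 libraries. It fell to 10.1 ± 1.0 CPM in HER2R against 34.9 ± 1.37 CPM in MKN45 (log2 fold change -1.79, SE 0.229, edgeR BH-adjusted p = 0.00922). It fell to 14.3 ± 4.0 CPM in CEAR against the same MKN45 level (log2 fold change -1.28, SE 0.224, edgeR BH-adjusted p = 0.0264). HER2R and CEAR themselves did not pass the test against each other (log2 fold change -0.51, 95% interval -1.06 to 0.04, edgeR BH-adjusted p = 0.183), although both HER2R libraries lay below both CEAR libraries. Each single-library omission left 1 line with 1 library. The HER2R call ended without HER2R library 1 or 2, and its log2 fold change ran from -1.90 to -1.69 over all omissions. The CEAR call held without CEAR library 2 and ended in the other omissions, with log2 fold changes from -1.60 to -1.02. The CEAR call also ended on the compared lines alone (edgeR BH-adjusted p = 0.0646). NLRC5 lies on chromosome 16 from 56989557 to 57083520 in RefSeq.

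**Figure D1:**
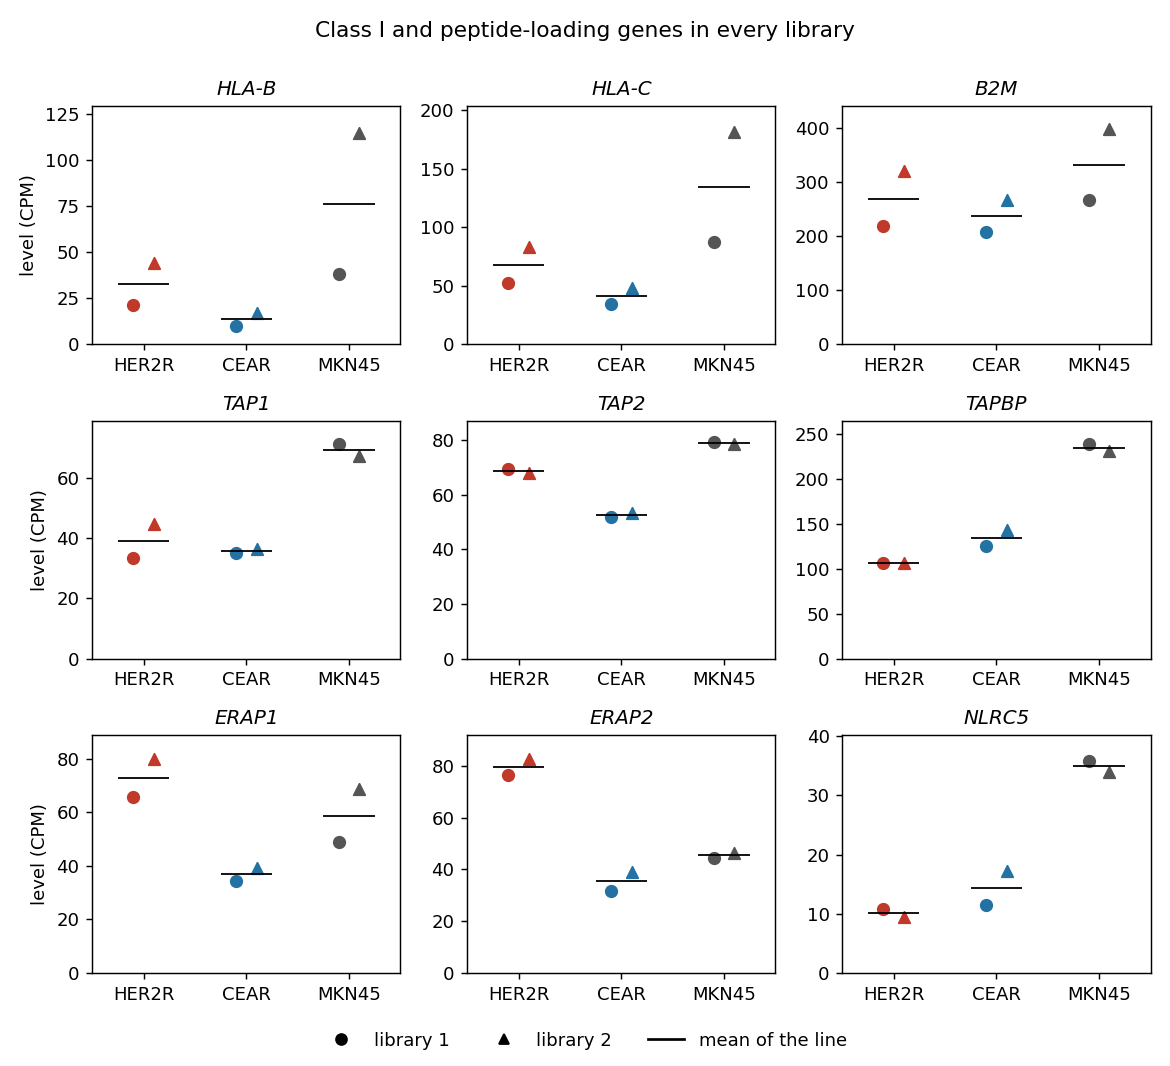
Level in CPM (linear axes from 0) of each member in HER2R, CEAR and MKN45, with circles for library 1, triangles for library 2 and a bar at the mean of the line. NLRC5, TAP1, TAP2, TAPBP and HLA-C are lower in all resistant libraries than in MKN45, as 12.7% of tested genes are. HLA-B, HLA-C and B2M stand apart between the libraries of a line.

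The heavy chains HLA-B and HLA-C had their lowest levels in CEAR and their highest in MKN45, but the libraries of a line differed widely. HLA-B, which presents peptides to CD8 T cells, had 21.3 and 44.1 CPM in HER2R, 9.90 and 17.1 CPM in CEAR, and 38.4 and 115 CPM in MKN45. Both CEAR libraries lay below all others, and HER2R library 2 lay above MKN45 library 1. HLA-C, which also serves as a ligand of NK cell receptors, had 52.4 and 83.0 CPM in HER2R, 34.3 and 48.1 CPM in CEAR, and 87.2 and 181 CPM in MKN45. For HLA-C the 3 lines did not overlap. In the fit with a line term alone neither gene passed in HER2R against MKN45, with log2 fold changes of -1.22 for HLA-B (95% interval -2.61 to 0.16, edgeR BH-adjusted p = 0.221) and -0.99 for HLA-C (95% interval -1.92 to -0.06, edgeR BH-adjusted p = 0.155). In CEAR against MKN45 they were larger and still missed the threshold, at -2.50 for HLA-B (SE 0.605, edgeR BH-adjusted p = 0.0642) and -1.70 for HLA-C (SE 0.395, edgeR BH-adjusted p = 0.0584). These sizes moved with the libraries kept. Without MKN45 library 2 HLA-B was at -0.24 in HER2R and -1.51 in CEAR, and HLA-C at -0.37 and -1.09. Without MKN45 library 1 HLA-B was at -1.81 in HER2R and -3.08 in CEAR, and HLA-C at -1.42 and -2.13. Without HER2R library 1 HLA-B was at -0.79 in HER2R against MKN45, and without HER2R library 2 at -1.84. For both genes library 2 was higher than library 1 in all 3 lines. An omission therefore sets 1 library number in a line against both numbers in the others. Between libraries of the same number, HLA-B in HER2R lay below MKN45 (21.3 against 38.4 CPM and 44.1 against 115 CPM).

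Ranges of p across alternatives, here and below, cover the block and the other refits listed under processing. Those other refits have no block, and DESeq2 and limma-voom are among them. With the library number of the labels (1 or 2) as a block beside the line, both heavy chains were called in every comparison. HLA-B was then at -1.13 in HER2R against MKN45 (SE 0.174, edgeR BH-adjusted p = 0.00205, 0.00205 to 0.808 across alternatives). In CEAR against MKN45 it was at -2.37 (SE 0.184, edgeR BH-adjusted p = 0.000121, 8.02e-05 to 0.208 across alternatives). In HER2R against CEAR it was at 1.24 (SE 0.183, edgeR BH-adjusted p = 0.00156, 0.00156 to 0.605 across alternatives). HLA-C was at -0.94 in HER2R against MKN45 (SE 0.139, edgeR BH-adjusted p = 0.00172, 0.00172 to 0.543 across alternatives), -1.64 in CEAR against MKN45 (SE 0.142, edgeR BH-adjusted p = 0.000205, 0.000205 to 0.193 across alternatives) and 0.70 in HER2R against CEAR (SE 0.141, edgeR BH-adjusted p = 0.00594, 0.00594 to 0.696 across alternatives). HLA-B and HLA-C are near copies of each other, 92.6% identical over 1532 aligned bases of their GENCODE 29 transcripts, and 30 of the 1498 windows of 50 bases in HLA-B occur unchanged in HLA-C (2.0%). The counting could have split reads between them and other class I genes, which leaves their levels uncertain. The share of windows does not measure by how much, since other class I genes and the alleles of MKN45 were not compared. They lie on chromosome 6, HLA-C from 31268749 to 31272092 and HLA-B from 31353875 to 31357179.

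B2M, the light chain that every class I molecule needs, was the most abundant member in every library in CPM, and its differences between lines were smaller than those of the heavy chains. It stood at 217 and 320 CPM in HER2R, 206 and 266 CPM in CEAR, and 266 and 397 CPM in MKN45. HER2R overlapped MKN45, and CEAR library 2 all but equalled MKN45 library 1. HER2R against MKN45 gave a log2 fold change of -0.30 (95% interval -0.95 to 0.35, edgeR BH-adjusted p = 0.513). CEAR against MKN45 gave -0.49 (95% interval -1.14 to 0.16, edgeR BH-adjusted p = 0.341). The block called CEAR lower at -0.47 (SE 0.110, edgeR BH-adjusted p = 0.0156, 0.0156 to 0.788 across alternatives), and it left HER2R uncalled (edgeR BH-adjusted p = 0.0669). B2M lies on chromosome 15 from 44711517 to 44718145.

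TAP1, a chain of the peptide transporter, was lower in both resistant lines. It had 33.4 and 44.6 CPM in HER2R, 35.1 and 36.5 CPM in CEAR, and 71.2 and 67.4 CPM in MKN45. Neither resistant line overlapped MKN45, and the resistant lines overlapped each other. TAP1 fell in HER2R (log2 fold change -0.83, SE 0.168, edgeR BH-adjusted p = 0.0323) and in CEAR (log2 fold change -0.95, SE 0.168, edgeR BH-adjusted p = 0.0274). HER2R against CEAR was at 0.12 (95% interval -0.28 to 0.53, edgeR BH-adjusted p = 0.655). Each call ended when a library of either compared line was left out. The HER2R call then had edgeR BH-adjusted p = 0.157 and 0.0727 without HER2R library 1 and 2, and 0.106 and 0.0926 without MKN45 library 1 and 2. The CEAR call had edgeR BH-adjusted p = 0.119 and 0.116 without CEAR library 1 and 2, and 0.0969 and 0.0868 without MKN45 library 1 and 2.

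TAP2, the other chain of the transporter, was called lower in CEAR. It had 69.4 and 68.1 CPM in HER2R, 51.7 and 53.5 CPM in CEAR, and 79.3 and 78.5 CPM in MKN45. The 3 lines did not overlap. CEAR against MKN45 was called (log2 fold change -0.59, SE 0.116, edgeR BH-adjusted p = 0.0377), and HER2R against MKN45 was not (log2 fold change -0.20, 95% interval -0.48 to 0.08, edgeR BH-adjusted p = 0.308). The direct test of HER2R against CEAR did not pass with a line term alone (log2 fold change 0.39, SE 0.116, edgeR BH-adjusted p = 0.0728) and passed with the block (edgeR BH-adjusted p = 0.0160, 0.0160 to 0.275 across alternatives). The CEAR call of TAP2 ended without any 1 of the 6 libraries, while its log2 fold change stayed between -0.61 and -0.56. The call also ended with no filter on low counts (edgeR BH-adjusted p = 0.0582) and on the compared lines alone (0.0861). TAP2 spans 32821831 to 32838739 and TAP1 32845209 to 32853704 on chromosome 6.

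TAPBP, which holds the heavy chain at the transporter until a peptide binds, fell in both resistant lines with little spread. It had 107 and 106 CPM in HER2R, 125 and 143 CPM in CEAR, and 238 and 231 CPM in MKN45. HER2R lay below CEAR and CEAR below MKN45, without overlap. TAPBP fell to 106 ± 0.344 CPM in HER2R against 234 ± 5.40 CPM in MKN45 (log2 fold change -1.14, SE 0.126, edgeR BH-adjusted p = 0.00605). In CEAR it fell to 134 ± 12.5 CPM against the same MKN45 level (log2 fold change -0.81, SE 0.126, edgeR BH-adjusted p = 0.0193). HER2R against CEAR was at -0.33 (SE 0.125, edgeR BH-adjusted p = 0.124), called with the block only (edgeR BH-adjusted p = 0.0378, 0.0378 to 0.454 across alternatives). The HER2R call ended without HER2R library 1 or 2, and its log2 fold change ran from -1.17 to -1.11 over all single-library omissions. The CEAR call ended without any 1 of the 6 libraries, with log2 fold changes from -0.90 to -0.71. The CEAR call also ended on the compared lines alone (edgeR BH-adjusted p = 0.0571). TAPBP spans 33299694 to 33314078 on chromosome 6.

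ERAP1 and ERAP2, the peptide-trimming aminopeptidases, were higher in HER2R than in CEAR. ERAP2 had 76.3 and 82.4 CPM in HER2R, 31.7 and 39.1 CPM in CEAR, and 44.5 and 46.3 CPM in MKN45. HER2R lay above both other lines and CEAR below MKN45, without overlap. ERAP2 rose in HER2R against MKN45 (log2 fold change 0.81, SE 0.148, edgeR BH-adjusted p = 0.0255) and was higher in HER2R than in CEAR (log2 fold change 1.17, SE 0.150, edgeR BH-adjusted p = 0.00942). In CEAR against MKN45 it was at -0.36 (95% interval -0.72 to -0.00, edgeR BH-adjusted p = 0.211), called with the block (edgeR BH-adjusted p = 0.0409, 0.0409 to 0.617 across alternatives). ERAP1 had 65.7 and 79.8 CPM in HER2R, 34.2 and 39.3 CPM in CEAR, and 48.8 and 68.5 CPM in MKN45. HER2R overlapped MKN45, and CEAR lay below both. ERAP1 was higher in HER2R than in CEAR (log2 fold change 0.98, SE 0.205, edgeR BH-adjusted p = 0.0298). Against MKN45 it did not pass in HER2R (log2 fold change 0.31, 95% interval -0.17 to 0.80, edgeR BH-adjusted p = 0.360) or in CEAR (log2 fold change -0.67, 95% interval -1.16 to -0.18, edgeR BH-adjusted p = 0.109), and the block called it lower in CEAR (edgeR BH-adjusted p = 0.00414, 0.00414 to 0.340 across alternatives).

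Each call of a trimming enzyme ended when HER2R library 1 or 2 was left out. For ERAP2 in HER2R against CEAR the log2 fold change ran from 1.02 to 1.32 over all single-library omissions. ERAP2 in HER2R against MKN45 was also lost without MKN45 library 1 or 2, with log2 fold changes from 0.75 to 0.86. ERAP1 in HER2R against CEAR was also lost without CEAR library 1 or 2, with log2 fold changes from 0.84 to 1.11. The genes are neighbours on chromosome 5, ERAP1 from 96760813 to 96935854 and ERAP2 from 96875984 to 96919716. The RefSeq span of ERAP1 covers ERAP2 and overlaps the end of CAST. The kit keeps strand, but whether the counting used it is not given in the sources used here, so reads from overlapping parts cannot be told apart.

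Over all 9 members, HER2R against MKN45 had 1 called higher and 3 called lower, where 4.89% and 4.85% of all tested genes were called higher and lower. The median log2 fold change of the 9 was -0.83, beside -0.02 over all tested genes, and was -0.24 without MKN45 library 2. CEAR against MKN45 had 4 called lower and 0 higher (edgeR), where 3.62% and 2.57% of tested genes were called. All 9 log2 fold changes were below 0 there, with a median of -0.81 beside 0.00 over all genes. In CEAR all 9 members lay below MKN45 without overlap of libraries, where 25.6% of tested genes did, but for B2M the nearest libraries were tied at 266 CPM. In HER2R 5 lay below MKN45 and 1 above without overlap, where 29.3% and 27.8% of tested genes did. HER2R against CEAR had 2 called higher and 0 lower, where 7.32% and 6.75% of tested genes were called. Without overlap, 5 members were higher and 2 lower, where 31% and 30.3% of tested genes were. The median of the members was 0.39 there, beside 0.00 over all genes. The members were chosen with earlier results of these data known. Their counts beside the shares of all genes, here and with the block below, are therefore a description.

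With the block, 5 members were lower and 1 higher in HER2R against MKN45, all 9 were lower in CEAR against MKN45, and 5 were higher and 1 lower in HER2R against CEAR. The block raised the background as well. It called 17.5% of all tested genes lower and 16.2% higher in HER2R against MKN45, 13.8% lower and 12% higher in CEAR against MKN45, and 19.7% higher and 18.6% lower in HER2R against CEAR. The comparisons with MKN45 share its 2 libraries, so their agreement is not independent.

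**Figure D2:**
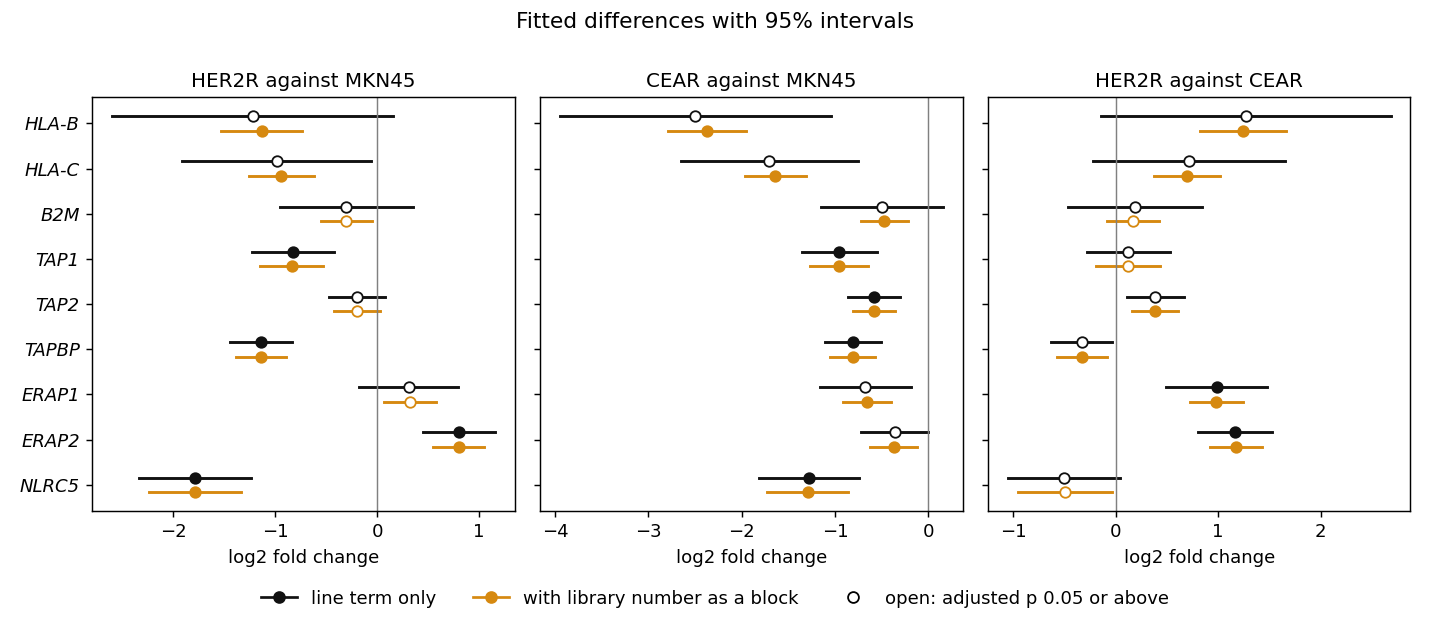
Fitted log2 fold change (linear axis, points) with 95% intervals (lines) of the 9 members in the 3 comparisons, for the fit with a line term (black) and the fit with library number as a block (orange), filled where the edgeR BH-adjusted p is under 0.05. The intervals of all 9 members narrow with the block, most for HLA-B, HLA-C, B2M and ERAP1, and less for NLRC5, TAPBP and TAP2.

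The library number moved some members and not others. In the fit with the block, number 2 was higher than number 1 for HLA-B (log2 fold change 1.16, SE 0.146, edgeR BH-adjusted p = 0.00288), HLA-C (0.74, SE 0.114, edgeR BH-adjusted p = 0.00592), B2M (0.50, SE 0.0902, edgeR BH-adjusted p = 0.00990) and ERAP1 (0.33, SE 0.0914, edgeR BH-adjusted p = 0.0440). These 4 of the 9 were called, where 9.33% of tested genes were called higher in number 2. Those 4 and ERAP2 were higher in number 2 in all 3 lines, as 26.9% of tested genes were. HLA-B in number 2 was 2.07 times number 1 in HER2R, 1.73 times in CEAR and 2.99 times in MKN45. TAP2 was at 0.00 (SE 0.0800, edgeR BH-adjusted p = 0.991), TAPBP at 0.05 (SE 0.0863, edgeR BH-adjusted p = 0.751), NLRC5 at 0.10 (SE 0.158, edgeR BH-adjusted p = 0.707), TAP1 at 0.13 (SE 0.110, edgeR BH-adjusted p = 0.461) and ERAP2 at 0.15 (SE 0.0894, edgeR BH-adjusted p = 0.267). What the number stands for (culture, day or run) is not in the labels, and its part in the line differences was not tested beyond this fit.

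**Figure D3:**
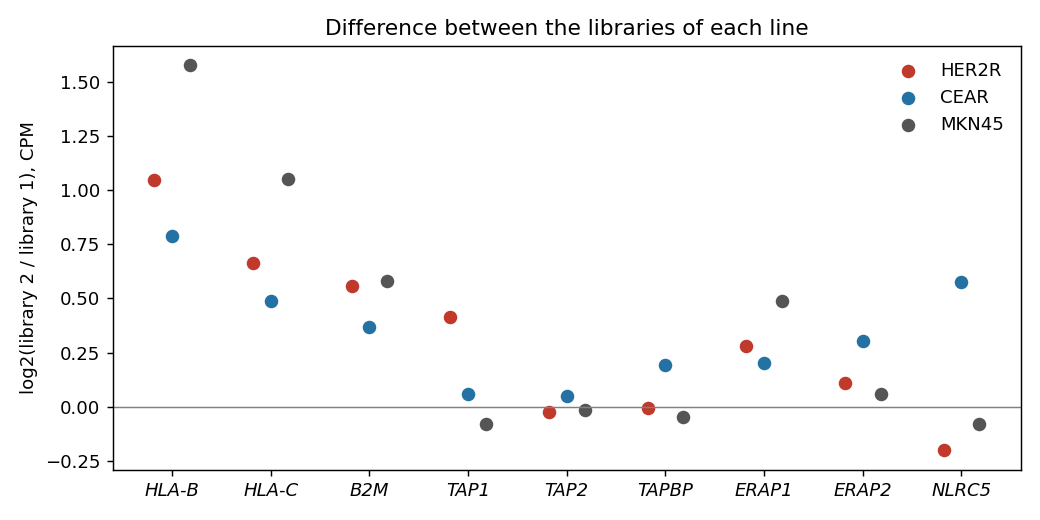
Log2 ratio of library 2 to library 1 in CPM (linear axis) of each member in HER2R, CEAR and MKN45, 1 point per line. HLA-B, HLA-C, B2M, ERAP1 and ERAP2 lie above 0 in all 3 lines, while TAP1, TAP2, TAPBP and NLRC5 lie on both sides.

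Set against gene length, B2M and TAPBP were the most abundant members and NLRC5 the least. The length was that of the longest GENCODE 29 transcript tagged as principal, 1705 bases for B2M, and these levels depend on that choice. B2M had 158 ± 42.7 CPM per kilobase in HER2R, 138 ± 24.8 in CEAR and 195 ± 54.5 in MKN45. TAPBP had 56.3 ± 0.182 CPM per kilobase in HER2R, 70.9 ± 6.61 in CEAR and 124 ± 2.86 in MKN45. HLA-C followed with 44.1 ± 14.1 CPM per kilobase in HER2R, 26.8 ± 6.38 in CEAR and 87.4 ± 43.2 in MKN45. In HER2R and in MKN45 the levels per kilobase of TAPBP and HLA-C did not differ beyond the spread of HLA-C. NLRC5 had 1.48 ± 0.147 CPM per kilobase in HER2R, 2.10 ± 0.586 in CEAR and 5.11 ± 0.200 in MKN45. Its level was the lowest of the 9 in every library.

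The other genes of the pathway stood on 6 lists of 72 genes, of which 68 were tested. In HER2R against MKN45 1 was called higher and 4 lower, in CEAR against MKN45 0 higher and 1 lower, and in HER2R against CEAR 3 higher and 5 lower (edgeR). Of all tested genes 4.89% and 4.85%, 2.57% and 3.62%, and 7.32% and 6.75% were called so, and no share of the 68 is read as a result beside them. The same shares stand beside the counts of each list below. The block gave 6 and 17, 5 and 22, and 16 and 10 of the 68, where it called 16.2% and 17.5%, 12% and 13.8%, and 19.7% and 18.6% of all tested genes. Their median log2 fold changes were -0.14, -0.17 and 0.11 in the 3 comparisons.

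**Figure D4:**
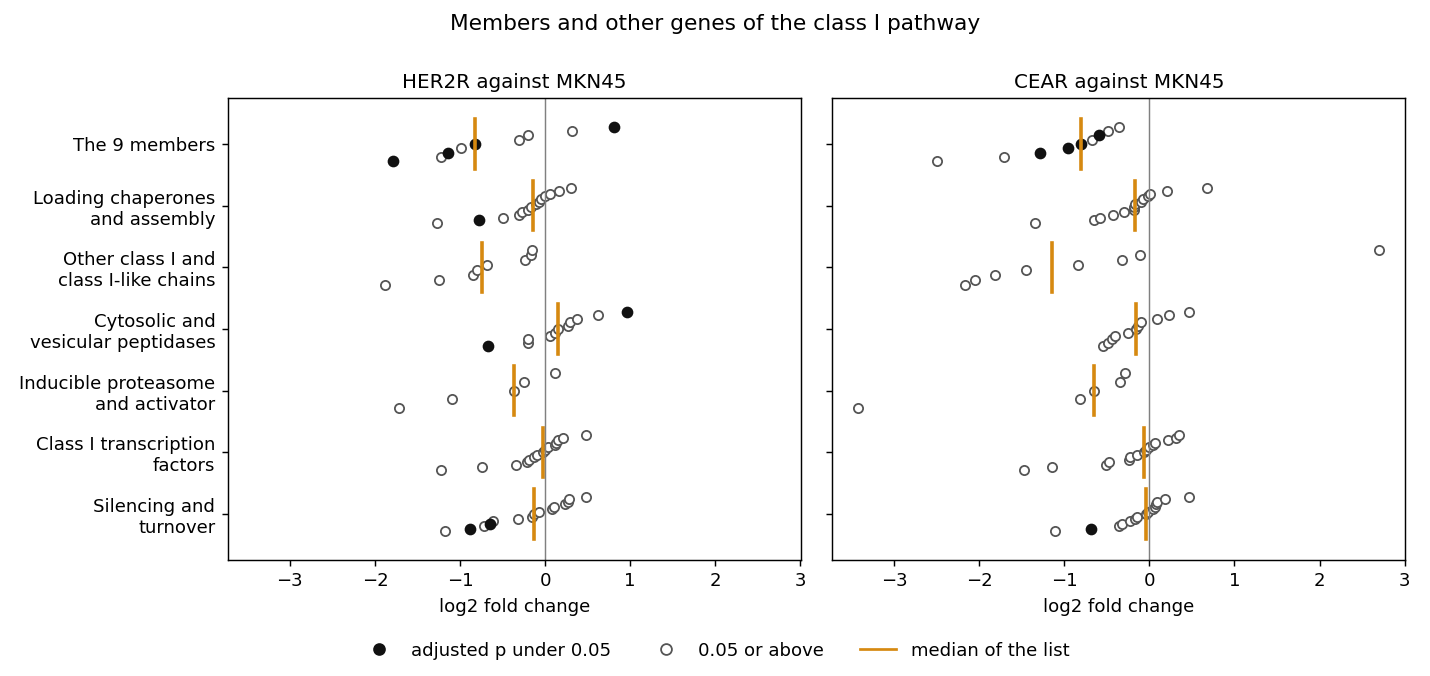
Log2 fold change (linear axis) of every tested member and of every tested gene on the 6 pathway lists, in HER2R and in CEAR against MKN45, filled where the edgeR BH-adjusted p is under 0.05, with an orange bar at the median of the list. In HER2R and CEAR the medians lie at -0.83 and -0.81 for the members, and at -0.74 and -1.15 for the other class I chains. Those of the inducible proteasome (-0.36 and -0.65), chaperones (-0.14 and -0.17), silencing genes (-0.13 and -0.04) and transcription factors (-0.03 and -0.06) also lie left of 0. The median of the peptidases lies at 0.15 in HER2R and -0.15 in CEAR.

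Of 14 loading chaperones and assembly genes, 0 rose and 1 fell in HER2R against MKN45, none was called in CEAR against MKN45 (edgeR), and 2 were lower in HER2R than in CEAR. With the block 0 rose and 3 fell in HER2R and 1 rose and 4 fell in CEAR against MKN45, and 1 was higher and 2 lower in HER2R than in CEAR. Of all tested genes the block called 16.2% and 17.5%, 12% and 13.8%, and 19.7% and 18.6% higher and lower in the same order. SPPL3, an intramembrane protease that alters surface glycans, fell in HER2R against MKN45 (49.8 ± 2.07 against 85.0 ± 5.83 CPM, a log2 fold change of -0.77, edgeR BH-adjusted p = 0.0202). It was also lower in HER2R than in CEAR (log2 fold change -0.68, edgeR BH-adjusted p = 0.0248), as was MOGS, a glucosidase of new N-glycans (log2 fold change -0.51, edgeR BH-adjusted p = 0.0477). CALR, the lectin chaperone of the loading complex, had 1460 ± 310 CPM in HER2R, 1467 ± 558 CPM in CEAR and 1460 ± 30.2 CPM in MKN45. CANX, the chaperone of free heavy chains, was at -0.58 in CEAR (edgeR BH-adjusted p = 0.132) and was called with the block (0.0431, 0.000890 to 0.485 across alternatives). PDIA3, the disulfide isomerase bound to tapasin, was at 0.31 in HER2R (edgeR BH-adjusted p = 0.424) and 0.68 in CEAR (edgeR BH-adjusted p = 0.140), where the block called it higher (0.0169, 0.0169 to 0.497 across alternatives). TAPBPL, a tapasin relative that edits peptides, was scarce at 0.586 ± 0.325 CPM in HER2R, 0.545 ± 0.532 CPM in CEAR and 1.46 ± 0.989 CPM in MKN45. The block called TAPBPL lower in HER2R (edgeR BH-adjusted p = 0.0327, 0.0327 to 0.835 across alternatives) and in CEAR (0.0275, 0.0275 to 0.828 across alternatives). The SPPL3 calls ended without a library of either compared line (edgeR BH-adjusted p = 0.0605 to 0.143), and the MOGS call in 11 of 14 alternatives (0.0504 to 0.221).

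Of 8 tested heavy chains of other class I and class I-like genes, none was called against MKN45 in either line (edgeR), while with the block 4 were lower in each and 1 higher in CEAR. The block called 17.5% of all tested genes lower in HER2R against MKN45, and 13.8% lower and 12% higher in CEAR against MKN45. HLA-E, a ligand of NK inhibitory receptors, had 72.5 and 88.0 CPM in HER2R, 62.3 and 82.2 CPM in CEAR, and 109.9 and 148.7 CPM in MKN45. Its log2 fold change was -0.69 in HER2R (edgeR BH-adjusted p = 0.0920, 0.00165 with the block, 0.00165 to 0.342 across alternatives) and -0.84 in CEAR (edgeR BH-adjusted p = 0.0724, 0.000778 with the block, 0.000778 to 0.257 across alternatives). HLA-F had 3.77 ± 0.688 CPM in HER2R, 1.99 ± 1.04 CPM in CEAR and 9.03 ± 5.37 CPM in MKN45, at -1.25 in HER2R (edgeR BH-adjusted p = 0.171) and -2.16 in CEAR (edgeR BH-adjusted p = 0.0703). The block called HLA-F lower in HER2R (edgeR BH-adjusted p = 0.0103, 0.0103 to 0.581 across alternatives) and in CEAR (0.00122, 0.00122 to 0.229 across alternatives), and higher in HER2R than in CEAR (0.0363, 0.0363 to 0.686 across alternatives). MR1, which presents vitamin B metabolites, was lower in HER2R than in CEAR (0.242 ± 0.235 against 1.76 ± 0.884 CPM, a log2 fold change of -2.85, edgeR BH-adjusted p = 0.0438). That call ended in 11 of 14 alternatives (edgeR BH-adjusted p = 0.0545 to 0.190), and its fitted value was -4.48 when HER2R library 2 was omitted. MR1 in CEAR against MKN45 was called higher with the block (edgeR BH-adjusted p = 0.00407, 0.00407 to 0.233 across alternatives).

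None of 5 inducible proteasome and activator genes was called in any comparison (edgeR), while 3 were lower in HER2R and 4 in CEAR against MKN45 with the block. Among all tested genes the block called 17.5% and 13.8% lower in these 2 comparisons. PSMB9, an inducible catalytic subunit, had 2.91 ± 1.95 CPM in HER2R, 0.875 ± 0.828 CPM in CEAR and 9.60 ± 5.18 CPM in MKN45. It was at -1.71 in HER2R (edgeR BH-adjusted p = 0.158, 0.00145 with the block, 0.00145 to 0.479 across alternatives) and -3.42 in CEAR (edgeR BH-adjusted p = 0.0556, 0.000194 with the block, 0.000194 to 0.161 across alternatives). The block also called PSMB9 higher in HER2R than in CEAR (edgeR BH-adjusted p = 0.00551, 0.00551 to 0.686 across alternatives). PSMB10, another such subunit, was at -1.10 in HER2R (edgeR BH-adjusted p = 0.0848) and -0.82 in CEAR (edgeR BH-adjusted p = 0.197), and the block called both lower (0.00274, 0.00274 to 0.315 across alternatives, and 0.00956, 0.00956 to 0.525 across alternatives). PSMB8, the third, was at 0.11 in HER2R (edgeR BH-adjusted p = 0.895) and -0.65 in CEAR (edgeR BH-adjusted p = 0.463). The block called PSMB8 lower in CEAR (edgeR BH-adjusted p = 0.0214, 0.0214 to 0.908 across alternatives) and higher in HER2R than in CEAR (0.0102, 0.0102 to 0.755 across alternatives).

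Of 15 tested transcription factors of class I genes, none was called against MKN45 (edgeR), and RELA, a subunit of NF-kappaB, was higher in HER2R than in CEAR (137 ± 8.86 against 94.0 ± 9.81 CPM, a log2 fold change of 0.55, edgeR BH-adjusted p = 0.0483). With the block 1 was higher and 1 lower in HER2R against MKN45, 1 and 3 in CEAR against MKN45, and 4 and 2 in HER2R against CEAR. It called 16.2% and 17.5%, 12% and 13.8%, and 19.7% and 18.6% of all tested genes so. RELA was then also higher in HER2R than in MKN45 (edgeR BH-adjusted p = 0.00628, 0.00628 to 0.305 across alternatives), and IRF1 higher in HER2R than in CEAR (0.0269, 0.0269 to 0.338 across alternatives). The RELA call ended in 10 of 14 alternatives (edgeR BH-adjusted p = 0.0534 to 0.227). IRF1, an interferon-induced activator of class I genes, had 17.1 ± 2.92 CPM in HER2R, 9.80 ± 2.31 CPM in CEAR and 21.6 ± 5.04 CPM in MKN45. Its log2 fold change was -0.34 in HER2R (edgeR BH-adjusted p = 0.441) and -1.14 in CEAR (edgeR BH-adjusted p = 0.0584, 0.00839 with the block, 0.00247 to 0.214 across alternatives). RFX5, a DNA-binding partner of NLRC5 at class I promoters, stood at 55.9 ± 10.8 CPM in HER2R, 47.0 ± 3.41 CPM in CEAR and 48.1 ± 2.39 CPM in MKN45, with log2 fold changes of 0.22 (edgeR BH-adjusted p = 0.449) and -0.04 (edgeR BH-adjusted p = 0.933). CIITA, the class II counterpart of NLRC5, did not pass the filter, with a mean of at most 0.0227 CPM in any line.

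Of 11 cytosolic and vesicular peptidases, 1 rose and 1 fell in HER2R against MKN45, none was called in CEAR against MKN45, and 2 were higher in HER2R than in CEAR (edgeR). With the block 4 rose and 1 fell in HER2R against MKN45, 1 rose and 4 fell in CEAR against MKN45, and 5 were higher in HER2R than in CEAR. Of all tested genes the block called 16.2% and 17.5%, 12% and 13.8%, and 19.7% and 18.6% higher and lower in these comparisons. NPEPPS, the puromycin-sensitive aminopeptidase, rose in HER2R (199 ± 9.84 against 102 ± 16.5 CPM, a log2 fold change of 0.96, edgeR BH-adjusted p = 0.0340) and was higher in HER2R than in CEAR (log2 fold change 1.05, edgeR BH-adjusted p = 0.0242). PREP, prolyl endopeptidase, fell in HER2R (38.8 ± 1.30 against 61.8 ± 0.758 CPM, a log2 fold change of -0.67, edgeR BH-adjusted p = 0.0249). NRD1, nardilysin, was higher in HER2R than in CEAR (log2 fold change 0.63, edgeR BH-adjusted p = 0.0305). The block also called PREP lower in CEAR than in MKN45 (edgeR BH-adjusted p = 0.0226, 0.0226 to 0.378 across alternatives) and NRD1 higher in HER2R than in MKN45 (0.0173, 0.0173 to 0.414 across alternatives). The NPEPPS rise ended without a library of either line (edgeR BH-adjusted p = 0.0658 to 0.171) or the filter (0.0554), and its difference from CEAR without HER2R library 1 (0.124), HER2R library 2 (0.112) or CEAR library 2 (0.0982). The PREP and NRD1 calls ended without a library of either compared line (edgeR BH-adjusted p = 0.0871 to 0.162).

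Of 15 tested genes of class I silencing and turnover, 2 fell in HER2R and 1 in CEAR against MKN45, and 2 were lower in HER2R than in CEAR. SND1, reported to route class I heavy chains to degradation, fell in HER2R (109 ± 5.91 against 201 ± 13.1 CPM, a log2 fold change of -0.88, edgeR BH-adjusted p = 0.0147) and in CEAR (125 ± 11.1 against 201 ± 13.1 CPM, a log2 fold change of -0.69, edgeR BH-adjusted p = 0.0353). EZH2, the methyltransferase of Polycomb repressive complex that can silence class I genes, fell in HER2R (36.5 ± 1.95 against 56.9 ± 7.28 CPM, a log2 fold change of -0.64, edgeR BH-adjusted p = 0.0444). BEND3, a DNA-binding repressor, and MARCH9, a ubiquitin ligase that downregulates class I, were lower in HER2R than in CEAR (log2 fold changes -0.62 and -0.81, edgeR BH-adjusted p = 0.0309 and 0.0492). With the block 1 rose and 5 fell in HER2R and 1 rose and 3 fell in CEAR against MKN45, and 2 were higher and 4 lower in HER2R than in CEAR. It called 16.2% and 17.5%, 12% and 13.8%, and 19.7% and 18.6% of all tested genes higher and lower in the same order. The block added BEND3 higher in CEAR than in MKN45 (edgeR BH-adjusted p = 0.0178, 0.0178 to 0.326 across alternatives), MARCH9 lower in HER2R than in MKN45 (0.0139, 0.0139 to 0.295 across alternatives) and EZH2 lower in HER2R than in CEAR (0.0447, 0.0447 to 0.483 across alternatives). The SND1 call in HER2R ended without HER2R library 1 (edgeR BH-adjusted p = 0.116), HER2R library 2 (0.0958) or MKN45 library 2 (0.0686). The SND1 call in CEAR and the calls of EZH2 and MARCH9 ended without any 1 of the 6 libraries (edgeR BH-adjusted p = 0.0550 to 0.223), with no filter (0.0520 to 0.0626) and on the compared lines alone (0.0556 to 0.0799), and that of BEND3 without a library of either compared line (0.107 to 0.157).

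Of the genes beside the members, CAST was called with a line term. On chromosome 5, CAST, which encodes the calpain inhibitor calpastatin, rose in HER2R (447 ± 70.1 against 214 ± 3.76 CPM in MKN45, log2 fold change 1.06, edgeR BH-adjusted p = 0.0147). It was also higher in HER2R than in CEAR (447 ± 70.1 against 212 ± 19.3 CPM, a log2 fold change of 1.07, edgeR BH-adjusted p = 0.0135). LNPEP, an aminopeptidase on the far side of ERAP2, was at 0.15 in HER2R (edgeR BH-adjusted p = 0.557) and -0.15 in CEAR (edgeR BH-adjusted p = 0.610). The CAST calls ended without a library of either compared line. Over all single-library omissions its log2 fold change ran from 0.89 to 1.21 against MKN45 and from 0.90 to 1.22 against CEAR. The nearest tested genes on each side of the other members were not called in any comparison with a line term. They were MICA and HCG27 beside the heavy chains, RGL2 and ZBTB22 beside TAPBP, and SPG11 and TRIM69 beside B2M. HERPUD1 and CPNE2 stood beside NLRC5, and PSMB8, PSMB9 and the antisense RNA TAPSAR1 beside the transporter. NOTCH4, the nearest tested gene before TAP2, lies far from it, ending at 32224067 where TAP2 starts at 32821831. Beside the proteasome genes above, the block called HCG27 higher in HER2R than in MKN45 (edgeR BH-adjusted p = 0.0372, 0.0372 to 0.355 across alternatives) and TAPSAR1 lower (0.0369, 0.0369 to 0.595 across alternatives). It called HERPUD1 lower in HER2R than in MKN45 (edgeR BH-adjusted p = 0.0461, 0.0461 to 0.984 across alternatives) and than in CEAR (0.00644, 0.00644 to 0.783 across alternatives), and MICA higher in HER2R than in CEAR (0.0342, 0.0342 to 0.718 across alternatives). RGL2, whose span overlaps TAPBP, had 65.8 ± 5.19 CPM in HER2R, 58.4 ± 4.28 CPM in CEAR and 61.9 ± 12.7 CPM in MKN45, and TAPSAR1, which overlaps TAP1, averaged at most 0.974 CPM in any line.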

How the data were processed

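RNA of 3 lines was sequenced from stranded total RNA libraries after ribosomal RNA depletion, per the labels' protocols. The submitters' processing notes list GRCh38 and limma with no role. Which aligner, counter and annotation served is not given in the sources used here. What the authors deposited are unnormalized counts by gene symbol. All 6 columns matched a sample.

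Genes were tested with edgeR 4.0.16 (R 4.3.3) in 1 quasi-likelihood fit with a line term over 6 libraries, after filterByExpr (14958 of 29744 symbols kept) and TMM scaling. The BH-adjusted p is the Benjamini-Hochberg value over all tested genes, called under 0.05. SE was taken as the absolute log2 fold change divided by the root of F. The 95% intervals of the fit with a line term use a t distribution with 3 residual plus 3.51 prior degrees of freedom. Those of the fit with the block use the degrees of freedom of that fit, so interval widths differ by this as well. CPM used scaled totals of tested genes.

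Members and lists were chosen with earlier results of these data known. Named were the members, set pathway genes, up to 4 called genes per list, direction and comparison, flanking tested genes, and the 3 genes most like NLRC5 and HLA-B. One gene so fixed is not reported here.

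Library numbers come from the labels. Number 2 minus number 1 correlated between lines over genes, at 0.378 (HER2R and MKN45), 0.545 (CEAR and MKN45) and 0.355 (HER2R and CEAR), so the number was taken to pair libraries. Libraries of a line were not copies, with chi-square over degrees of freedom at 60.7 to 128. Alternatives were this replicate block, RLE factors, no filter, a filter at 1 CPM in 2 libraries, DESeq2 1.42.0, limma-voom (limma 3.58.1), the compared lines alone, leaving out each library and, chosen after seeing the data, the legacy quasi-likelihood method.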

Additional observations from a re-analysis of the deposited data

Results flagged for a closer look

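The difference between the resistant lines was tested directly for every member, and 2 of 9 were called higher and 0 lower, where 7.32% and 6.75% of all tested genes were called higher and lower. ERAP2 was higher in HER2R than in CEAR, at 76.3 and 82.4 CPM against 31.7 and 39.1 CPM (log2 fold change 1.17, SE 0.150, edgeR BH-adjusted p = 0.00942, higher in both HER2R libraries). ERAP1 was higher in HER2R than in CEAR, at 65.7 and 79.8 CPM against 34.2 and 39.3 CPM (log2 fold change 0.98, SE 0.205, edgeR BH-adjusted p = 0.0298, higher in both HER2R libraries). Both are single-locus differences between lines with 2 libraries each, and groups of that size were not searched for outlying libraries.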

How the results depend on the processing

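Over all alternatives, 315 refits of single members kept their direction and their side of the threshold, 43 lost a call, 17 gained one and 3 changed sign. Only calls made in the fit with a line term could be lost, and these were 4, 4 and 2 in the 3 comparisons. Most of the lost calls came from leaving out a library. The replicate block moved most counts: it called 2419 genes higher and 2621 lower in HER2R against MKN45 (731 and 726 without it), 1795 and 2066 in CEAR against MKN45 (385 and 541), and 2942 and 2775 in HER2R against CEAR (1095 and 1010). Members called lower went to 5 in HER2R and 9 in CEAR against MKN45, and in HER2R against CEAR to 5 higher and 1 lower. Pathway genes called went to 6 higher and 17 lower, 5 and 22, and 16 and 10 in the same order. The block changed 11 calls of single members, all given beside their results, and no other. DESeq2 called 1361 and 1459, 939 and 1159, and 1783 and 1649 genes. Its members called lower in CEAR went to 7, adding HLA-B, HLA-C and ERAP1 (DESeq2 BH-adjusted p = 8.02e-05, 0.000283 and 0.0387). In HER2R against CEAR it added TAP2 as higher (DESeq2 BH-adjusted p = 0.0205). Its pathway genes went to 4 and 11 in HER2R against MKN45, 3 and 12 in CEAR against MKN45, and 7 higher in HER2R against CEAR.

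Fitted on the compared lines alone, CEAR against MKN45 had 171 genes higher and 234 lower, 1 member lower and 0 pathway genes lower, and HER2R against CEAR had 2 pathway genes lower. Without a filter, pathway genes called went to 0 higher in HER2R against MKN45, 0 lower in CEAR against MKN45 and 2 lower in HER2R against CEAR. The filter at 1 CPM gave 2 pathway genes higher in HER2R against MKN45. limma-voom gave 2 pathway genes lower in CEAR against MKN45 and 3 lower in HER2R against CEAR, and the legacy method also 3 there. Scaling by RLE changed no call of a member. The causes of these moves were not tested.

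Leaving out 1 library left the line with 1 library to vary like the others. It gave 140 to 587 genes higher and 49 to 549 lower in HER2R against MKN45, 109 to 176 and 116 to 252 in CEAR against MKN45, and 75 to 973 and 28 to 883 in HER2R against CEAR. Members called ranged over 0 to 1 higher and 0 to 3 lower, 0 to 0 and 0 to 2, and 0 to 2 and 0 to 0. Pathway genes ranged over 0 to 1 and 0 to 4, 0 to 0 and 0 to 1, and 0 to 2 and 0 to 2. The median log2 fold change of the members ran from -1.05 to -0.24, from -0.90 to -0.71 and from 0.35 to 0.44. Of the members' values, 3 uncalled ones changed sign: B2M in HER2R against MKN45 (0.011 without MKN45 library 2, range -0.61 to 0.011), and B2M (-0.12, range -0.12 to 0.44) and TAP1 (-0.10, range -0.10 to 0.31) in HER2R against CEAR without HER2R library 2. CIITA was too scarce to test, and depth was not varied.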

Other observations

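HLA-B over HLA-C, as a ratio of CPM, was 0.407 and 0.531 in HER2R, 0.289 and 0.355 in CEAR, and 0.440 and 0.632 in MKN45. HLA-C over B2M was 0.241 and 0.259 in HER2R, 0.166 and 0.181 in CEAR, and 0.328 and 0.456 in MKN45, so it was lower in every resistant library than in either MKN45 library. TAP1 over TAP2 was 0.482 and 0.655 in HER2R, 0.678 and 0.683 in CEAR, and 0.899 and 0.858 in MKN45. ERAP2 over ERAP1 was 1.16 and 1.03 in HER2R, 0.925 and 0.993 in CEAR, and 0.913 and 0.676 in MKN45.

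The pattern of NLRC5 over the 6 libraries was closest to that of TAPBP among the members, with a Pearson correlation of 0.992 on log2(CPM + 0.5). Among 10867 tested genes at a mean of 5 CPM or more, those most like NLRC5 outside the members were METTL7B (0.993), TMEM120B (0.991) and ENKD1 (0.989). HLA-B was closest to HLA-C among the members, at 0.995, and its likeness to NLRC5 was 0.581. Outside the members, ELMOD3 (0.988) and GIPC2 (0.985) were among those most like HLA-B. These correlations describe 6 libraries that share 3 lines and 2 numbers.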
